A study of Mus musculus with 74 samples.

Results

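Gm13152 is a mouse KRAB zinc finger protein (KRAB-ZFP) whose binding was mapped by ChIP-seq in F9 EC cells, a mouse embryonal carcinoma line. Its members here were the 5189 peaks that carry the name Gm13152 in the deposited peak table, out of 53011 peaks of 67 KRAB-ZFPs in the series. They were compared with the 15539 peaks of the 17 other KRAB-ZFPs that were assayed in the same cell line with the same tag. In all 18 samples the cells overexpressed one KRAB-ZFP with an N-terminal 3XFLAG tag, chromatin was pulled down with the FLAG antibody F1804 by the same ChIP protocol, and peaks were called over both F9_Input and FLAG_control. The proteins were expressed from stably integrating vectors in pooled puromycin-resistant clones, so the peaks describe an overexpressed protein and not the endogenous one. With 1 sample for each protein there is no replicate spread, and the 95% Wilson intervals given with shares cover counting error only. Peaks of Gm13152 were kept at p under 1e-10 and enrichment over 20, as in 11 of the 17 other samples. Another 4 used an enrichment of 10 at the same p, and the remaining 2 an enrichment of 10 at a p of 1e-05. Library depth is unknown from the table. Gm13152 had the most tags inside its peaks, 540220, and the other 17 samples had from 2002 to 395483.

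KRAB-ZFPs form one of the largest families of transcription factors in mammals. Their C-terminal zinc fingers read DNA and their KRAB domain recruits the corepressor KAP1 (Trim28), which brings in histone methyltransferases and other silencing enzymes. Most studied members bind retrotransposons, including the long terminal repeats (LTRs) of endogenous retroviruses. Many mammalian promoters lie in CpG islands, stretches of DNA rich in G and C in which the dinucleotide CpG is not depleted. The Gm13152 gene (ENSMUSG00000078496.3) lies on chromosome 4 at 146866526 to 146887595 of mm9, on the plus strand. It held no peak of its own protein, and the nearest one lay 304791 bp away.

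The sequences below show the kinds of site in the peak set. The first is the oligo that the study designed for reporter assays with Gm13152, which by its name comes from the LTR RLTR13B1, with the part that matches the motif found here in capitals. The second is the motif consensus, learned from peaks on odd-numbered chromosomes, in which N marks a position where no base held a majority.
reporter oligo: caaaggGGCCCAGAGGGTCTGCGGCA
motif consensus: GGCCCNGNGGGTCNGCGGCN
The next 5 are the matches at the promoter peaks of highest fold that had one, with the 20 matched bases in capitals, with mm9 positions, and each on the strand that reads like the consensus.
Rab14, chr2:35056411-35056440, minus strand: gactgCCACCCGAGTGTCTGCAACCtccgg
Vars, chr17:35138123-35138152, plus strand: ccggcCGCCCTGTGGGGCCGCGGCCgtagc
Kif13a, chr13:47024800-47024829, minus strand: ggcgtGGCCCCGGGTGGAGGCGGCGcccag
Ube2q2, chr9:54997640-54997669, minus strand: cgcccGGCCCCGAGGGGCTACGACCcggcg
Wdr26, chr1:183142472-183142501, minus strand: ggcccGTGCCAGTGCGTCTGCGGCCccctc
All 16 majority bases of the consensus match the oligo from its base 7 to its base 26. The oligo scored 29.7 bits, the highest score the motif allows, while the sites at Rab14, Vars, Kif13a, Ube2q2 and Wdr26 scored 9.75, 17.2, 16.0, 16.5 and 17.6 bits. The oligo was the study's own target sequence for this protein, so its match is no independent evidence for the motif. Vars, Kif13a, Ube2q2 and Wdr26 lie on odd-numbered chromosomes, so the motif was learned in part from their peaks.

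Whole peak windows of 200 bp contrast a promoter, a member of the largest sequence family among the peaks (described further on) and a tandem repeat, all on the plus strand of mm9 and outside annotated exons. Capitals mark the motif match on the other strand in the first, the oligo's 26 bases in the second and 1 repeat unit of 22 bases in the third. The second window was chosen after its values were seen, for its high fold and its exact oligo match. It is intergenic, and the nearest annotated start is that of Klf6.
Kif13a promoter, chr13:47024727-47024926: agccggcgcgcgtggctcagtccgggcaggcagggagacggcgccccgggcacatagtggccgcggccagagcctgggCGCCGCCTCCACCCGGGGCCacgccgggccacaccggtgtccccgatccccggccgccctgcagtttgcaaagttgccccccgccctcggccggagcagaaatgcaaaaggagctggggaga
Intergenic family copy, chr13:5583687-5583886: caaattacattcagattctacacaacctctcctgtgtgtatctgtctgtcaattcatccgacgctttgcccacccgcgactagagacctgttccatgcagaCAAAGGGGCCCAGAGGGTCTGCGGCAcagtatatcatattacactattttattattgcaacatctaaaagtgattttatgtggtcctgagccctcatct
Intron near Vgll4, chr6:114715931-114716130: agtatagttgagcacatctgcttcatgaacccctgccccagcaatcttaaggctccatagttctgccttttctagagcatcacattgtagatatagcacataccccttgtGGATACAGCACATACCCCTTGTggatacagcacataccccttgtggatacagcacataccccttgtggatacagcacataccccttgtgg
The promoter window has a CpG ratio of 0.79, the family copy holds the whole oligo, and the Vgll4 window ends in a run of the same unit. Their deposited folds, the enrichment of the peak over its local background, were 157.24, 97.25 and 176.33.

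To ask where Gm13152 bound relative to genes, each summit was assigned to the nearest annotated transcript start. Of the 5189 summits, 2597 (50.05%, 48.7 to 51.4%) lay within 1 kb of a start and are called promoter peaks. Another 1022 (19.7%) lay between 1 and 10 kb away, and 1570 (30.3%) lay farther and are called distal. Bases within 1 kb of a start make up 4.15% of the known genome sequence, so the share of promoter peaks was 12.1 times the share of bases.

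The promoter share of Gm13152 was the highest of the 18 FLAG samples. Zfp46 followed with 133 of 300 peaks (44.3%, 38.8 to 49.99%) and Zfp810 with 73 of 243 (30.04%, 24.6 to 36.1%), whereas the median of the other 17 samples was 11.3% and the lowest was Gm21082 with 2.49%. The difference from the mean of the others was 36.1 percentage points (exact permutation over the 18 samples, two-sided p = 0.0556, and 0.222 adjusted over the 4 measures compared in this way). With 1 sample on one side this p is the rank of Gm13152 and the smallest this design allows, and Gm13152 was chosen with its promoter share known, so the comparison is a description. A nearly equal share was found outside the FLAG samples, since among all 57 other F9 samples Zfp456, which carried an HA tag and was called at an enrichment of 10, had 48.6%. The rank held among the 12 samples with the same calling settings, where the other 11 ranged from 2.49 to 44.3%. It also held among the 50 peaks of highest score in each sample, where Gm13152 had 74.0% and the others at most 44.0%.

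**Figure D1:**
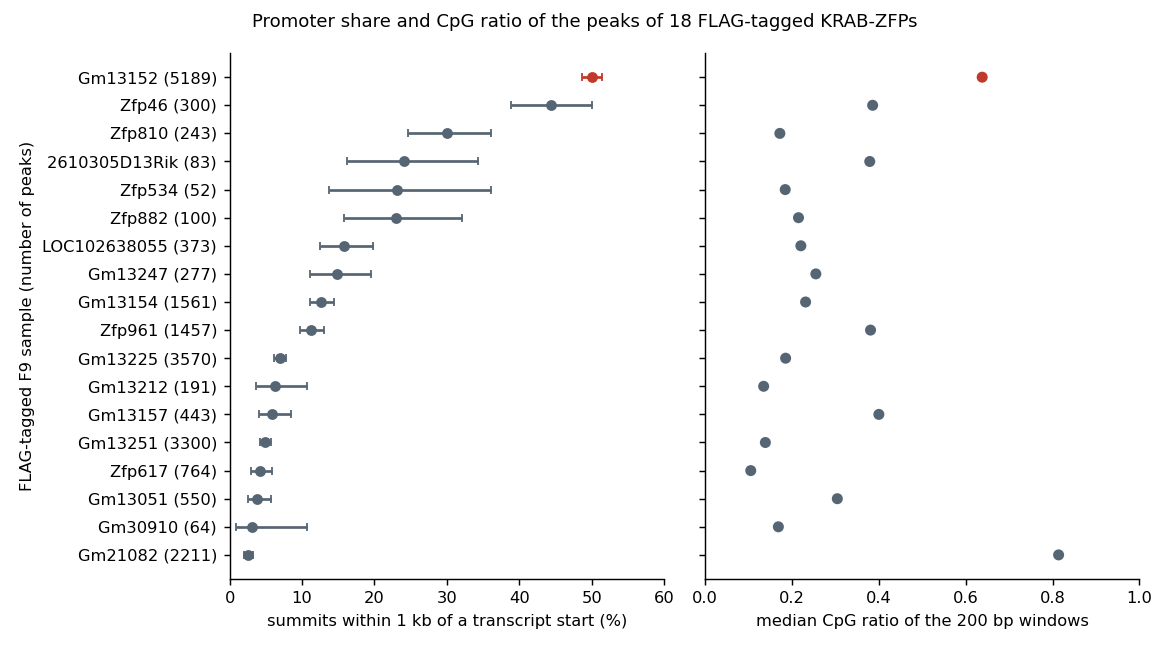
The left panel plots, for each of the 18 FLAG-tagged F9 samples (number of peaks in brackets), the percent of summits within 1 kb of a transcript start with its 95% Wilson interval, and the right panel plots the median CpG ratio of the 200 bp windows. Gm13152, in red, sits highest on the left at 50.05%, close to Zfp46, and second on the right at 0.64, below Gm21082 at 0.81.

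The sequence under the peaks was richer in CpG than in 16 of the other samples. The CpG ratio, the number of CpG dinucleotides over that expected from the C and G content, had a median of 0.64 in the 200 bp windows of Gm13152 against a mean of 0.28 over the other samples, with Gm21082 higher at 0.81 and Gm13157 next below at 0.40 (exact permutation, two-sided p = 0.111, adjusted p = 0.222). Gm21082 had the lowest promoter share of all, and 93.0% of its windows were multi-copy, defined as a median 24-mer that occurs more than once in the genome. Of the Gm13152 windows, 13.9% were multi-copy, with 11 samples above and 6 below (exact permutation, two-sided p = 0.556). The median fold of 32.7 lay within the range of the others, 11.8 to 62.4 (exact permutation, two-sided p = 0.667).

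Within the Gm13152 set, promoter and distal peaks differed in base composition and copy number while their median folds were equal. Promoter windows had a median CpG ratio of 0.88 and a median GC content of 72%, those at 1 to 10 kb 0.38 and 55%, and distal windows 0.35 and 50%. Multi-copy windows made up 2.89% of promoter peaks (2.31 to 3.605%), 15.7% at 1 to 10 kb and 30.8% of distal peaks (28.6 to 33.2%). The median fold was 32.7 at promoters, with quartiles of 24.5 and 48.2, and also 32.7 at distal peaks, with quartiles of 25.45 and 48.2. Promoter peaks were wider, with a median called width of 710 bp against 570 bp, and held more tags, a median of 94 against 69. The part of width in the tag counts was not tested.

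Promoter summits were centred just downstream of the start. Of the 2597, 1199 (46.2%) lay within 100 bp and 2318 (89.3%) within 500 bp of the start, and the median signed distance was 21 bp downstream with quartiles of -87 and 148 bp. Downstream summits numbered 1512 (58.2%) and upstream summits 1071 (41.2%), and 14 fell on the annotated start itself. By annotation, 899 promoter summits (34.6%) lay in a UTR, 386 (14.9%) in a coding exon, 607 (23.4%) in an intron and 624 (24.03%) outside genes. Distal summits were mostly intergenic (1069, 68.1%) or intronic (448, 28.5%), and 39 (2.48%) lay in coding exons.

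**Figure D2:**
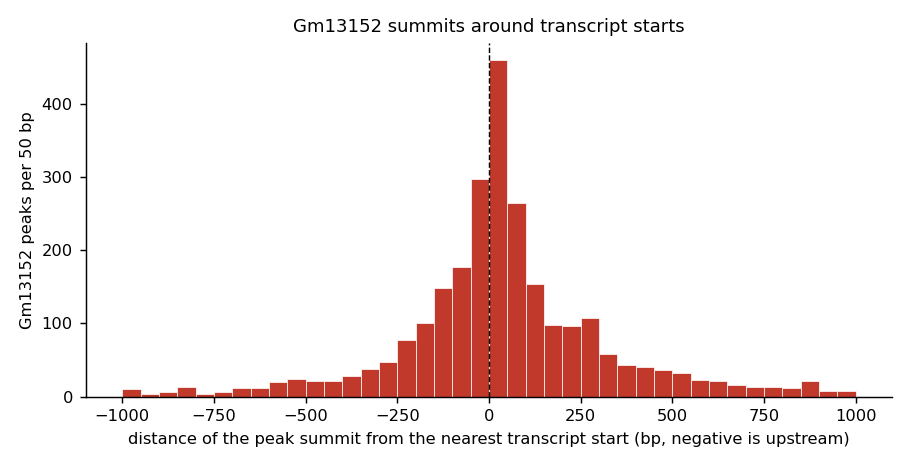
The bars count Gm13152 summits per 50 bp of distance from the nearest annotated transcript start, with upstream positions negative. The tallest bar, 460 summits, covers the first 50 bp downstream of the start, and counts fall to 10 and 8 summits in the outermost bins.

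To ask which genes carry these peaks, every annotated gene with a summit within 1 kb of any of its starts was counted. Of 22367 protein-coding genes, 2645 (11.8%) had one, and over all 37273 annotated genes the share was 7.93%. Genes for long intergenic RNAs had a similar share (134 of 1273, 10.53%), while it was 0.961% for pseudogenes (50 of 5201) and 1.71% for miRNA genes (27 of 1577). At the 5′-most start of each protein-coding gene, promoters were classed by the sequence within 250 bp on either side. CpG-rich promoters, with a CpG ratio of at least 0.75 and a GC content of at least 55%, carried a peak in 1683 of 7366 cases (22.8%, 21.9 to 23.8%). CpG-poor promoters, with a ratio under 0.48, did so in 81 of 9697 (0.84%, 0.67 to 1.04%). The share rose over the bins of CpG ratio, from 0.33% under 0.25 to 11.6% between 0.5 and 0.75 and 26.6% at 1 or more. Most CpG-rich promoters had no called peak, and since depth is unknown this does not show that they were unbound. CpG-rich starts with a diverging protein-coding start within 1 kb had a peak in 184 of 950 cases (19.4%, 16.98 to 22.003%), against 1499 of 6416 (23.4%, 22.3 to 24.4%) for the others.

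The gene lists below were read against the 11.8% of all protein-coding genes, and within CpG-rich promoters against 22.8%, as counts without a test. Several housekeeping lists had shares below both. The intervals of these lists included 11.8% except for ribosomal proteins (1.87 to 11.6%). Within CpG-rich promoters, that of proteasome subunits (3 of 25, 4.17 to 29.96%) included 22.8%. Of 84 ribosomal protein genes, which encode the structural proteins of cytosolic ribosomes, 4 (4.76%) had a promoter peak, and 2 of 53 with CpG-rich promoters (3.77%). Among these were Rpl8 at a fold of 42.4, Rpl7 at 25.4 and Rpl36a at 22.7. Mitochondrial ribosomal proteins had 5 of 75 (6.67%, and 7.14% of those with CpG-rich promoters), among them Mrps26 with a fold of 142 from 331 tags, 89 bp downstream of its start. Proteasome subunits had 3 of 41 (7.32%), namely Psma7 at 90.6, Psma3 at 21.98 and Psmc2 at 20.6. RNA polymerase II and general transcription factors had 6 of 82 (7.32%), with Taf7l highest at 29.99, and histone genes 7 of 79 (8.86%) with Hist1h1d highest at 29.3. Among CpG-rich promoters the shares were 5 of 61 (8.20%) for the former and 1 of 31 (3.23%) for histone genes.

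Other housekeeping lists were near or above the 11.8% of all genes but below the 22.8% of CpG-rich promoters, with shares among their CpG-rich promoters of 4 of 21 (19.0%) for aminoacyl-tRNA synthetases, 7 of 46 (15.2%) for the respiratory chain, 10 of 48 (20.8%) for chaperones and 3 of 23 (13.04%) for cyclins and cyclin-dependent kinases. The intervals of these CpG-rich shares all included 22.8%. Aminoacyl-tRNA synthetases, which charge tRNAs with their amino acids, had 4 of 37 (10.8%), with Vars at 174, Fars2 at 69.1 and Yars at 22.5 among them. Respiratory chain genes had 11 of 92 (11.96%), led by the ATP synthase subunit Atp5d at 131 and the complex I assembly factor Ndufaf4 at 78.5. Chaperones had 13 of 82 (15.9%), led by the J-domain protein genes Dnajb5 at 110 (274 tags, 3 bp downstream) and Dnajc7 at 98.7. Cyclins and cyclin-dependent kinases had 5 of 42 (11.9%), with Ccno at 67.3, Cdk14 at 30.9, Cdk4 at 28.2 and Cdk8 at 27.3.

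Among regulators, the KAP1 and heterochromatin list had 7 of 34 (20.6%, 10.3 to 36.8%), and 5 of its 24 CpG-rich promoters (20.8%) carried a peak, close to the 22.8% over all CpG-rich promoters. Its highest folds were at Mta3, a subunit of the NuRD deacetylase complex, at 120 (291 tags, 157 bp upstream), the histone chaperone Rbbp7 at 42.7, the histone H3K9 methyltransferase Ehmt2 at 36.4 and the DNA methyltransferase Dnmt3a at 28.2. Developmental transcription factors of the Hox, Pax, Fox, Sox, Gata, Tbx and Nkx families had 22 of 144 (15.3%, 10.3 to 22.05%) and 14 of 46 with CpG-rich promoters (30.4%, 19.1 to 44.8%). Foxk1 led at 145, followed by Hoxd9 at 80.9, Nkx2-4 at 79.1 and Sox21 at 63.6. Zinc finger genes named Zfp had 46 of 371 (12.4%, 9.43 to 16.1%) and 28 of 125 with CpG-rich promoters (22.4%). Zfp467 led at 145, followed by Zfp277 at 85.4, Zfp704 at 72.7 and Zfp259 at 61.8.

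Of 40 annotated germline and meiosis genes 6 (15%, 7.06 to 29.1%) had a promoter peak, and 3 of 13 with CpG-rich promoters (23.1%). Among the 6 were the meiotic MutS homologue Msh5 at 153, the meiotic cohesin subunit Smc1b at 29.99, the germ-cell TFIID subunit Taf7l at 29.99 and the testis bromodomain gene Brdt at 29.1. Of 23 annotated pluripotency factors 2 (8.70%, 2.42 to 26.8%) had a promoter peak, Myc at 38.1 and Sox2 at 28.8, and 1 of 7 with CpG-rich promoters. Imprinted genes had 4 of 35 (11.4%), namely Igf2 at 56.4, Plagl1 at 28.2, Ube3a at 26.4 and Inpp5f at 20.9. None of 1113 olfactory receptor genes had a promoter peak, which by the Wilson interval allows a share of up to 0.344%, and none of their promoters was CpG-rich.

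**Figure D3:**
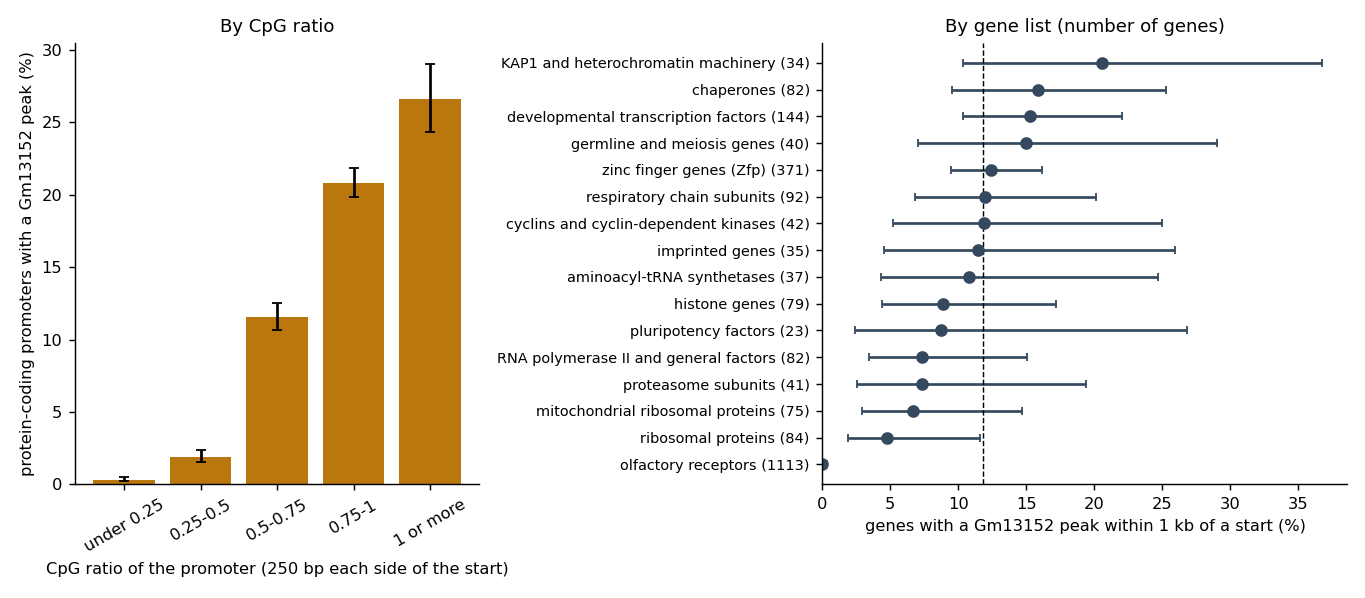
The left panel plots the percent of protein-coding promoters with a Gm13152 peak by the CpG ratio of the promoter, and the right panel the percent of genes with a promoter peak in each list (number of genes in brackets), all with 95% Wilson intervals. The bars rise from 0.33 to 26.6%, and most lists scatter around the dashed line at 11.8%, the share of all protein-coding genes.

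The 10 highest folds at protein-coding starts were E430025E21Rik (183, 521 tags, 76 bp downstream), the endosomal GTPase Rab14 (175, 472 tags, 45 bp downstream), Vars (174, 463 tags, 124 bp upstream), Ildr2 (174, 497 tags, 136 bp upstream), the kinesin Kif13a (157, 488 tags, 260 bp downstream), the ubiquitin-conjugating enzyme Ube2q2 (157, 503 tags, 197 bp upstream), Wdr26 (155, 467 tags, 366 bp upstream), Nt5dc3 (155, 402 tags, 113 bp downstream), Msh5 (153, 384 tags, 256 bp upstream) and Yipf4 (149, 352 tags, 265 bp downstream). All 10 windows were single-copy, with CpG ratios from 0.54 to 1.06. A motif match was found in 6 of them, namely Rab14, Vars, Kif13a, Ube2q2, Wdr26 and Nt5dc3, and the match at Rab14 lay just above the threshold. The peaks at Vars, Kif13a, Ube2q2 and Wdr26 were among those from which the motif was learned.

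A single sequence family held most of the distal peaks. Windows that share at least 4 24-mers were joined, and the largest family held 1169 peaks on 20 chromosomes, of which 855 were distal and 20 lay at promoters. It made up 54.5% of all distal peaks (52.0 to 56.9%) and 0.77% of promoter peaks (0.50 to 1.19%). The median fold of its 1149 members over 1 kb from a start was 36.4, against 30.1 for the 1443 other peaks at that distance, and their median GC content was 47.5% against 57.5%. The next families were small. One held 26 peaks, all on chromosome 14, of which 14 lay at promoters of different gene models such as Gm3248 and Gm2897, with a median fold of 27.3. Another, with a median GC content of 81.0%, held 23 peaks on 13 chromosomes, 21 of them at promoters, including those of Src, Esr1 and Kcnk3.

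Copies of the reporter oligo lay in a peak more often the closer their match. The genome held 192 exact 26-base matches on either strand, of which 179 (93.2%, 88.8 to 96.0%) lay within 100 bp of a Gm13152 summit. The share fell to 76.2% of 383 sites with 1 mismatch, 62.2% of 463 with 2, 30.7% of 527 with 3, 29.4% of 402 with 4, 19.9% of 331 with 5 and 5% of 420 with 6 mismatches. The median fold of peaks over these sites was 46.4 with no mismatch, 39.1, 37.3 and 32.7 with 1, 2 and 3 mismatches, and 35.03, 29.3 and 33.6 with 4, 5 and 6. Among the family windows over 1 kb from a start, 544 of 1149 (47.3%) were multi-copy. Multiply mapping reads were each given 1 pseudo-randomly picked best position, and the part of this in these shares and folds was not tested. Of the 1565 sites with at most 3 mismatches, 13 lay within 1 kb of a start, and 8 of these were in a peak. No more than 7 of the 1565 sites lay in a peak of any other FLAG sample, the highest number being that of Zfp961. The same sequence was nearly absent from promoter peaks and also from the other peaks over 1 kb from a start. With at most 3 mismatches it was held by 907 of the 1149 family peaks over 1 kb from a start (78.9%). This was so for 7 of the 2597 promoter peaks (0.27%, 0.13 to 0.56%) and 4 of the 1443 other peaks over 1 kb away (0.28%, 0.11 to 0.71%). The closest stretch had a median of 11 mismatches in promoter windows and in those other windows. The family was joined by shared sequence, so its contrast with the rest is in part built in.

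To ask whether a looser form of the same sequence was present at promoters, a 20-base motif was learned from the 2752 peaks on odd-numbered chromosomes and scored in the 100 bp around the summits of the 2437 other peaks. The match threshold, 9.74 bits, was the score that 5% of flanking windows reached on the learning chromosomes. On the held-out chromosomes 54.5% of promoter peaks (645 of 1183, 51.7 to 57.3%) and 63.8% of the peaks over 1 kb from a start (800 of 1254, 61.1 to 66.4%) had a match, a difference of -9.27 percentage points (95% Newcombe interval -13.1 to -5.37). Flanking windows 400 to 500 bp from the summit had matches in 9.09% of cases at promoters and in 1.59% elsewhere. At a threshold that 1% of flanks reached, 14.13 bits, the shares were 20.5% at promoters (flanks 1.61%) and 49.6% elsewhere (flanks 0.20%). Members of the family share their sequence and are not independent cases of the motif. With this motif the negative difference rests on them, and the interval counts them as independent. Without them the direction reversed: 43.2% of the 667 other peaks over 1 kb from a start had a match (39.5 to 47.0%, flanks 2.92%), below the 54.5% at promoters, and at 14.13 bits 17.99% had one (15.3 to 21.1%), beside 20.5% at promoters (18.3 to 22.9%). It did not reverse for a motif learned only on peaks over 1 kb from a start. That motif matched 57.1% of promoter peaks (54.2 to 59.9%, flanks 12.1%) and 59.7% of those 667 (55.9 to 63.3%, flanks 8.02%). The intervals overlap here and at 14.13 bits, so neither of these directions goes beyond counting error.

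Matches were most frequent next to the summits. At 14.13 bits on the held-out chromosomes, the 50 bp intervals on either side of the summit held a match in 11.7 and 11.5% of promoter peaks, 46.3 and 45.0% of family peaks and 9.60 and 10.8% of the other peaks, and the outermost intervals, 450 to 500 bp away, in 1.10 and 1.18%, 0.17 and 0%, and 0.15 and 0%. The median score of the matches was 13.1 bits at promoters and 27.5 bits in the family. In promoters, 367 of 645 matches (56.9%, 53.0 to 60.7%) read in the direction of the gene. Fold rose with the score at promoters, from a median of 28.5 (quartiles 23.6 and 41.1) in the 296 windows of lowest score to 42.7 (28.04 and 63.8) in the 296 of highest score. In the family the median was 27.65 in the 147 windows of lowest score, 43.2 at 26.6 to 28.7 bits and 39.2 above, so the order did not continue to the top.

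**Figure D4:**
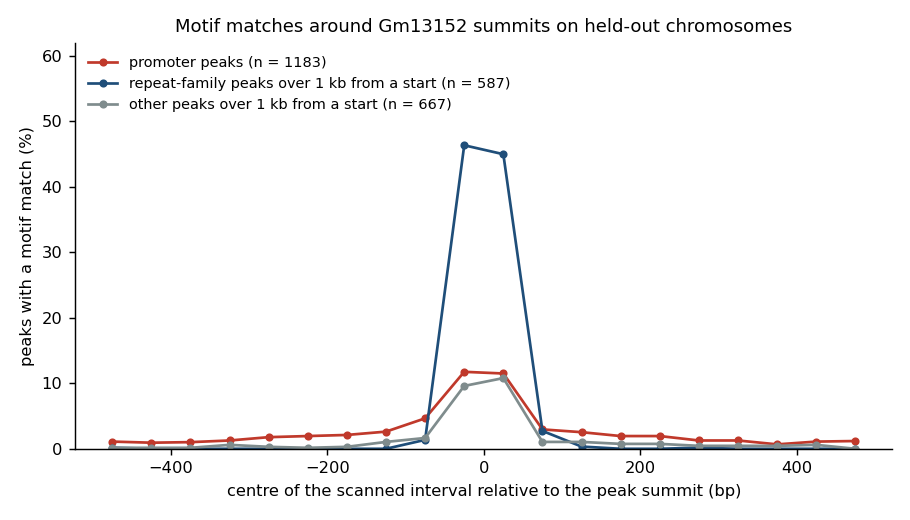
The lines plot the percent of held-out peaks with a motif match at the 14.13-bit threshold, in steps of 50 bp from the summit, for promoter peaks, family peaks over 1 kb from a start and other peaks over 1 kb from a start. The family reaches 46.3% next to the summit and is at or near 0 beyond 100 bp, whereas promoter peaks reach 11.7% over a flanking level near 1%.

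Motif matches were next counted at promoters with and without a called peak. At the 5′-most starts of held-out chromosomes, with windows centred 21 bp downstream, 33.2% of the 776 CpG-rich promoters with a peak had a match (30.02 to 36.6%), against 16.2% of the 2607 CpG-rich promoters without a peak (14.9 to 17.7%) and 8.97% of all 10278 protein-coding promoters. Conversely, sites of 14.13 to 20 bits lay in a peak in 14.4% of 2319 cases within 1 kb of a start and in 1.91% of 7917 cases elsewhere. Among sites of the same scores in CpG-rich sequence, the share was 19.5% of 1387 near starts (17.5 to 21.7%) and 18% of 150 away from starts (12.7 to 24.9%), while in other sequence it was 6.76% of 932 and 1.60% of 7767. For sites over 26 bits the shares were 4 of 5 near starts and 75.2% of 544 elsewhere (71.4 to 78.6%). No site over 26 bits lay in CpG-rich sequence.

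**Figure D5:**
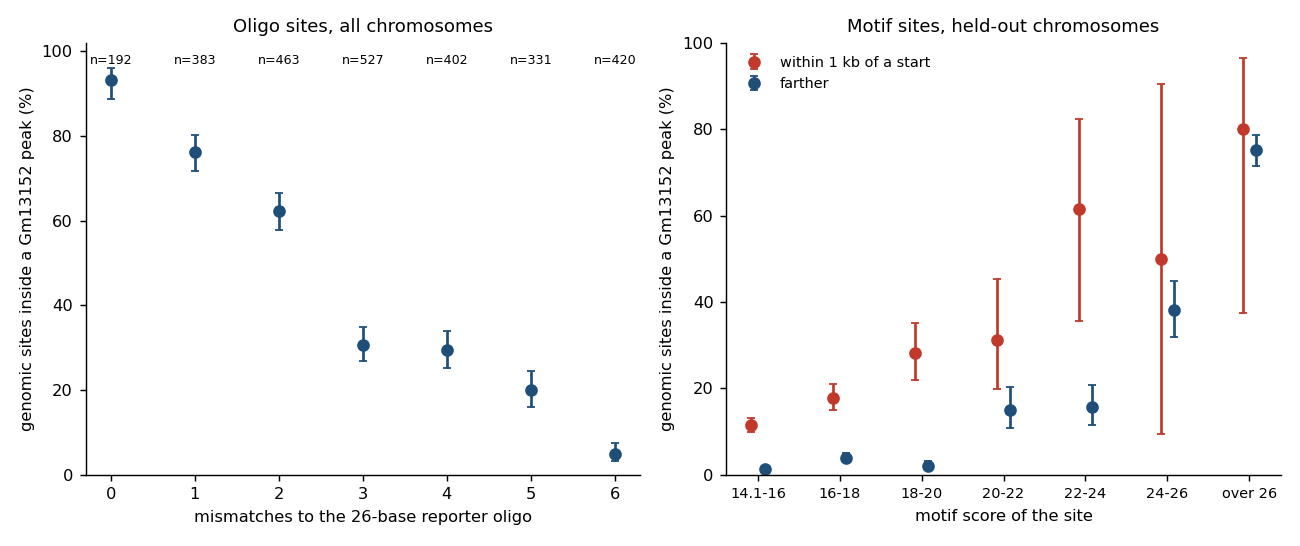
The left panel plots the percent of genomic matches to the 26-base reporter oligo that lie within 100 bp of a Gm13152 summit, by number of mismatches, and the right panel the same for motif sites on held-out chromosomes by score, within 1 kb of a transcript start or farther, all with 95% Wilson intervals. The share falls from 93.2 to 5% over 0 to 6 mismatches, and sites under 20 bits are in peaks more often near starts.

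The words that were most centred differed between the classes. They were chosen on odd-numbered chromosomes, counted on either strand in the 100 bp windows of the others, and can overlap the motif. CCGCCGCC, the leading word of promoter peaks, was present in 22.9% of held-out promoter peaks (20.6 to 25.4%, flanks 4.44%), in 13.3% of CpG-rich promoters without a peak, in 6.15% of all protein-coding promoters and in 0 of 587 family peaks. The next words were chosen on all peaks over 1 kb from a start, family included, and family members share their sequence, so their shares are not independent cases. AGAGGGTC, a core of the oligo, was present in 83.0% of family peaks but in 3.15% of the other peaks over 1 kb from a start. It was present in 1.27% of promoter peaks and 0.27% of all protein-coding promoters. CCCGTTCC, which lies outside the 20-base motif, was found in 40.5% of family peaks, in 0 of the 667 other peaks and in 2 of 1183 promoter peaks (0.17%).

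Tandem repeats were frequent among the highest distal folds. A window was called a tandem repeat where a stretch of at least 80 bases matched itself by 85% or more at a shift of 8 to 60 bases. Of the 10 distal peaks with the highest fold, 7 were tandem repeats with units of 21 to 32 bases, and none was a member of the family or held a motif match. They included the window printed above, in an intron 98744 bp downstream of the start of Vgll4, a cofactor of TEAD transcription factors (fold 176, 532 tags, unit of 22 bases). Another lay in an intron, 19532 bp from the nearest start, that of the plakophilin gene Pkp4 (158, 369 tags, 32 bases), and a further one 13465 bp from a start of AL591712.1 (155, 625 tags, 24 bases), the peak with the most tags in the set. Among the other windows, those 144174 bp from the ephrin gene Efnb2 (149, 435 tags) and 34310 bp from 4933407C03Rik (125, 333 tags) did not meet the tandem definition. Of the 1443 peaks over 1 kb from a start outside the family, 50 (3.46%, 2.64 to 4.54%) were tandem repeats, against 0.31% of windows 1 kb to either side. A motif match was found in 18 of the 50, counted over learning and held-out chromosomes together. Their median fold was 57.8, against 29.99 for the others. They made up 16 of the 50 highest folds in that class and none of the 50 highest at promoters. In Zfp810, the sample with the highest share, 83 of 170 peaks over 1 kb from a start (48.8%) were tandem repeats, against 1.93% in Gm13152. The reads of a tandem array can be placed at any of its units, and the part of this in the folds was not tested.

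Overlap of the Gm13152 peaks with those of the other FLAG samples was counted next. The other samples had from 52 to 3570 peaks, so a share of the 5189 depends on these set sizes. No share expected from the set sizes is given. A window overlapped one of another sample by at least 25% in 132 of 5189 cases (2.54%, 2.15 to 3.01%), which was 81 of 2597 promoter peaks (3.12%, 2.52 to 3.86%), 9 of 1149 family peaks (0.78%, 0.41 to 1.48%) and 42 of the 1443 other peaks (2.91%). The median fold was 32.7 for shared and for unshared peaks. The most were shared with Zfp46, 41 peaks, which is 0.79% of the Gm13152 set and 13.7% of the Zfp46 set, followed by Gm13154 with 26 (0.50% and 1.67%) and Zfp810 with 23 (0.44% and 9.47%). Of the promoter peaks of Zfp46, 29 of 133 (21.8%) lay on a Gm13152 peak, and of those of Zfp810 16 of 73 (21.9%). The promoter windows of Zfp46 and Zfp810 were CpG-rich too, with median CpG ratios of 0.83 each. Over all CpG-rich protein-coding promoters, 22.8% had a Gm13152 summit within 1 kb of the 5′-most start, a looser criterion than overlap. The Gm13152 motif was present in 17 of 63 held-out promoter peaks of Zfp46 (27.0%, 17.6 to 39.0%) and in 5 of 26 of Zfp810 (19.2%, 8.51 to 37.9%), against 54.5% of its own.

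Of the 7 peaks shared with 3 or more other samples, 5 are named, with ties resolved by fold. A window in an intron 21970 bp from Anubl1 (fold 53.0, 292 tags) and one 85 bp upstream of Tram1, which encodes a protein of the endoplasmic reticulum translocon (29.0, 81 tags), were shared with 5 other samples each. A window 92989 bp from Gm16631 (22.7, 31 tags) was shared with 4, and windows 127 bp upstream of the nuclear receptor gene Rora (79.1, 271 tags) and 1484 bp from a start of Zfp316 in a coding exon (37.3, 328 tags) with 3 each. None of these 5 held a motif match, and none belonged to the family.

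The peaks were spread over all chromosomes but Y. The promoter share ranged from 31.5% on chromosome X to 64.8% on chromosome 19. Chromosome X also held the most family peaks, 96 of its 181, and the lowest number of promoter peaks, 57. The share of CpG-rich promoters with a peak ranged from 16% to 31.96% over the autosomes, and was 21 of 129 (16.3%, 10.9 to 23.6%) on chromosome X.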

How the data were processed

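Each of the 18 FLAG-tagged proteins was assayed in 1 sample. Per the labels and the study's methods, the authors mapped the F9 FLAG reads to mm9 with Bowtie, in which multiply mapping reads were each given 1 pseudo-randomly picked best position, and called peaks with MACS 1.4.2. The authors deposited 200 bp windows around the summits with a tag count, a score (10 times the negative log10 of the p-value), a fold ratio over local background and a false discovery rate in percent, which was at most 0.06% for Gm13152. Library depth is not in the table. Gene starts came from gencode vM1 on NCBIM37, the same assembly as mm9. The 244 peaks listed under a name that no label gives were left out. Samples were compared by exact permutation of 18 samples, and shares by Wilson intervals at 95%, in Python 3 with numpy and scipy. The nearest-start, motif and tandem-repeat functions were tested on simulated data. The loci named were the 10 highest folds at protein-coding starts and over 10 kb from any start, up to 4 genes per list and the 5 most shared peaks. The peaks, gene lists and rules were chosen with earlier results of these data known, and the tandem-repeat measure after the windows were seen. Alternatives varied the start window, calling thresholds, comparison samples, motif learning and overlap. A few distal loci and list genes are not reported here.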

Additional observations from a re-analysis of the deposited data

How the results depend on the processing

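No paired analysis was possible because each protein had 1 sample. Of 49 alternatives for 10 results, 39 kept direction and side of the threshold, or, for values without a test, stayed within the interval or spread, or, for the count of genes, within 1.5 times. For comparisons over 12, 17 or 18 samples no p could pass the threshold, and the limit of fold 40 was applied to Gm13152 only, so these say nothing of stability. The promoter share of 50.05% had an exact permutation p of 0.0172 (two-sided) over all 58 F9 samples. This is its rank and follows from the number of samples, and Zfp456 was close at 48.6%. The median fold lay above the mean of the other samples in the main comparison but below it when peaks of every sample were limited to p 1e-10 and enrichment 20 (33.6 in Gm13152, 17 samples left) and among samples with the same settings (32.7). The motif share of 59.3% over all held-out peaks was 55.7% when learned on even and sex chromosomes, 35.5% at the 1% threshold, 65.4% when learned on peaks over 1 kb from a start and 71.0% for peaks with a fold of at least 40. The difference in motif share between promoter peaks and all peaks over 1 kb from a start, family included, was -29.1 percentage points at the 1% threshold and -16.2 when learned away from starts, and the cause was not tested. Outside the family, 17.99% of the other peaks over 1 kb from a start had a match at the 1% threshold, beside 20.5% of promoter peaks. The motif learned away from starts matched 59.7% of those other peaks and 57.1% of promoter peaks. In both cases the intervals overlapped. With a fold of at least 40, fewer peaks remained and 943 genes had a promoter peak in place of 2645. The promoter share among single-copy windows, added after seeing the data, was 56.4%. The unknown depth of the libraries limits any statement about a promoter or oligo site without a peak.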
